A study of Mus musculus with 2 samples.

Results

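The genes for the proteins of the mitochondrial ribosome were compared between activated E47-ER and its control in the mouse line 1F9. Members were all probes whose gene symbol in the platform annotation starts with Mrpl or Mrps and a number, and 59 of the 10208 named genes met this rule. Of these, 36 carry large-subunit (Mrpl) and 23 small-subunit (Mrps) symbols. RefSeq lists 78 mouse genes with such symbols, and the other members of that set were not analysed here. Each member was represented by 1 probe, so no member could be compared across probes.

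1F9 is a cell line from a thymoma of an E2A-deficient mouse, and both samples therefore lack the E2A products E12 and E47, helix-loop-helix transcription factors of developing lymphocytes. One sample had received a retrovirus for a hybrid of E47 and oestrogen receptor sequence (E47-ER). The other had received a control retrovirus (bHLH-ER), whose hybrid keeps the bHLH region of E47 and lacks the N-terminal activation domain. Both were treated for 6 hours with 4-hydroxytamoxifen, which activates the fusion proteins, from day 1 after infection, and were selected on magnetic beads for human CD25, which both viruses encode. Each construct has 1 array, in 1 cell line, and neither an uninfected nor an untreated sample was analysed here, so either construct can be the source of a difference and none has a replicate check. The free-text description of the control names the E47 fusion, and its title was used to assign it.

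Mitochondria keep a small genome that encodes a few subunits of the respiratory chain and ATP synthase, and these are made on a ribosome of their own. Its rRNAs are transcribed from mitochondrial DNA, whereas its proteins are encoded in the nucleus, made in the cytosol and imported. Some of them descend from bacterial ribosomal proteins, and others have no bacterial counterpart and were added in the mitochondrial lineage. The large subunit forms peptide bonds and releases the nascent chain at the inner membrane, and the small subunit binds the mRNA and decodes it. Proliferating lymphocytes need this ribosome to build respiratory complexes.

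The arrays gave a scaled intensity for 20289 probes, of which 19621 were positive on both arrays. Array medians were 0.950 (control) and 0.939 (E47-ER), and 5563 named genes lay at or above the level limit, the median of the mean log2 intensity, which corresponds to an intensity of 1.03. Of the T lineage markers with a probe, 9 of 9 were measured above this limit. Their median log2 difference was 0.39, with 4 past 1.5-fold, all higher with E47-ER, against 5.41% of all measured genes higher by that much. Among them were Ptcra (7.32 and 30.8, in the order control and E47-ER array) and Rag1 (52.1 and 104). The lowest of the 9 was Cd3e, which was lower with E47-ER (23.1 and 16.4, -0.47). Among the B lineage markers 4 of 5 were measured, with the lowest difference in Pax5 (1.17 and 0.927) and the highest in Vpreb1 (2.14 and 4.36), and with Cd79a at 14.7 and 12.7. Among the myeloid markers 1 of 5 was measured (Itgam, 0.866 and 1.44), among the fibroblast 1 of 2 (Sparc, 3.55 and 4.00), and none of the 2 erythroid and 4 NK and cytotoxic markers. Their part in the differences below was not tested. Each difference below is E47-ER minus control, in log2 intensity centred on the array median. In bulk RNA, fewer cells of a type and less RNA per cell cannot be told apart.

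All 59 members were positive on both arrays and lay above the level limit, 48 of them also above the 75th percentile of level (an intensity of 6.68). Their intensities ran from 1.18 to 111 on the control array, with a median of 25.7, and with E47-ER they ran from 1.37 to 133, with a median of 28.2. The medians were 26.2 and 30.05 for the large subunit and 25.1 and 27.9 for the small subunit. Intensities of different probes are not compared as transcript levels here.

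No mitochondrial ribosomal protein gene differed by 2-fold between the constructs, nor by 1.5-fold. Over all measured genes, 1.62% differed by 2-fold or more (1.35% higher, 0.27% lower) and 6.65% by 1.5-fold or more (5.41% higher, 1.24% lower), so a set of this size would hold few such genes at the background share. The members' differences lay between -0.26 and 0.57, with a median of 0.15 and an SD of 0.18 over the 59 genes. All measured genes had a median of 0.11 and an SD of 0.32. Above the 75th percentile of level, all genes had a median of 0.13 and an SD of 0.28. The 48 members there had 0.15 and 0.16. Different probes of 1 gene, available for 55 other measured genes, had a pooled SD of 0.20, and 34 of the 59 members lay within 0.2 of 0, a share close to the 54% of all measured genes.

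**Figure D1:**
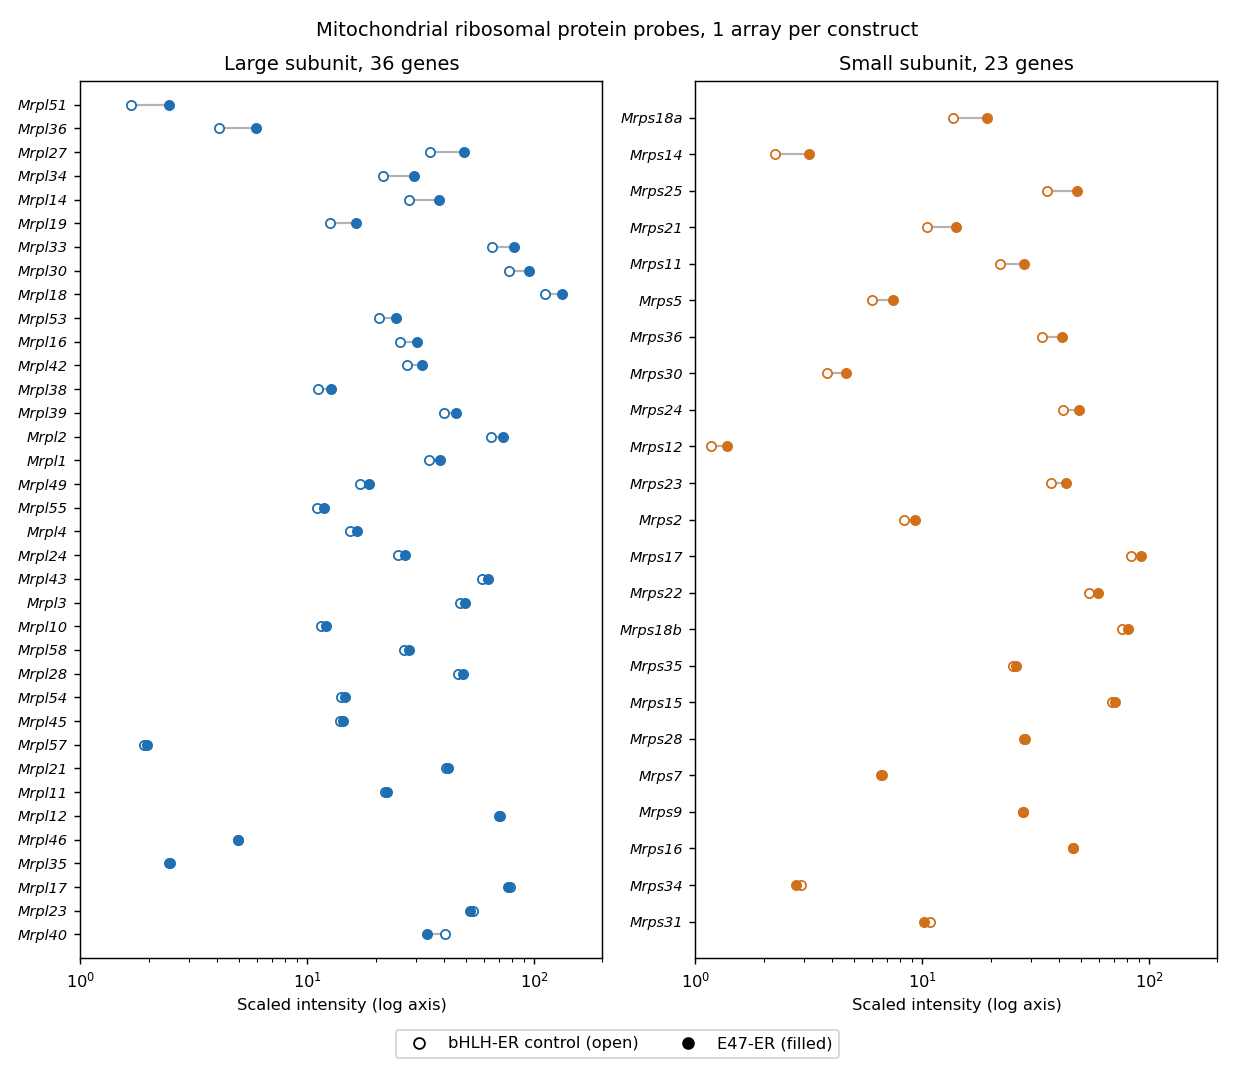
Scaled intensity (log axis) of each mitochondrial ribosomal protein probe on the bHLH-ER control array (open circle) and the E47-ER array (filled circle), ordered within each subunit by the difference. The pairs lie close together at every brightness. Plotted intensities are not centred. After each array is centred on its median, the E47-ER value is the higher one in 54 of 59 genes, against 66.7% of all measured genes. Mrpl35 and Mrpl46 are among these 54, but their plotted E47-ER values are slightly the lower ones.

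Of the 59 differences, 54 were positive, against a background share of 66.7% of all measured genes. This count depends on where 0 is set. Setting the arrays' 75th percentiles equal, in place of their medians, moved every difference by -0.11, after which 35 of 59 members were positive and 49.7% of all measured genes. Relative to the median of all measured genes, 35 members were higher and the rest lower, and the members' median exceeded that of all measured genes by 0.045. After removal of the level-dependent trend by loess, this excess was 0.017 and 34 members were positive, against 53.6% of all measured genes. A share of positive members far above the background thus did not remain under these scalings, while the absence of any 1.5-fold difference did.

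**Figure D2:**
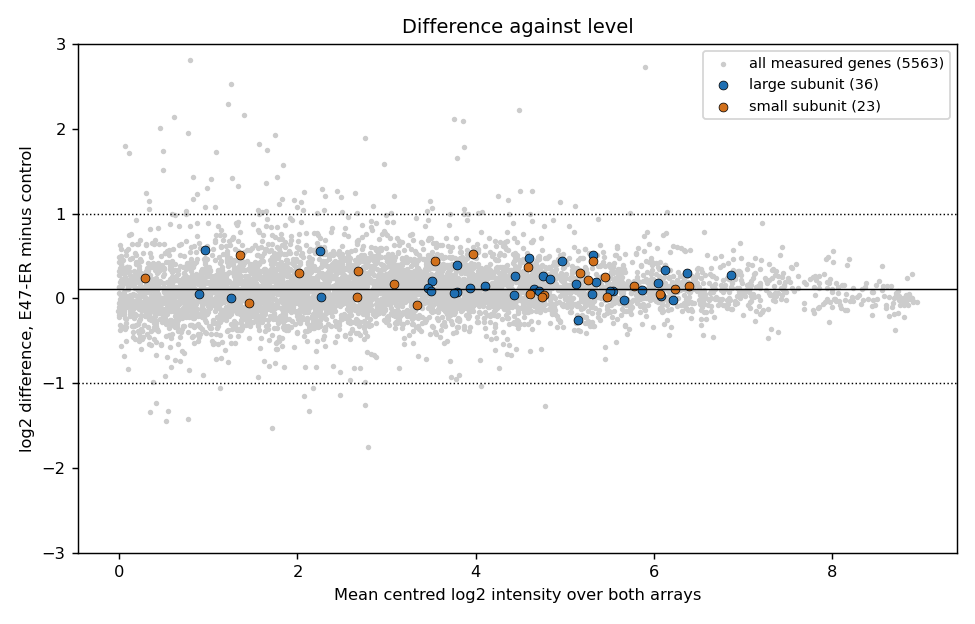
Log2 difference (E47-ER minus control) against mean centred log2 intensity for all 5563 measured genes (grey) and for the 36 large-subunit and 23 small-subunit members. Dotted lines mark 2-fold and the solid line the median of all measured genes (0.11). The members form a band between -0.26 and 0.57 inside the cloud of other genes.

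Large and small subunits had similar distributions. The median difference was 0.12 over the 36 large-subunit genes (lowest -0.26, highest 0.57, SD 0.18) and 0.18 over the 23 small-subunit genes (lowest -0.077, highest 0.52, SD 0.18). The large-subunit median was thus lower by 0.053. The SD within a subunit is a spread among genes, and 1 array per construct gives no measure of the uncertainty of this gap. Positive differences were found in 33 of 36 and in 21 of 23 genes, against 66.7% of all measured genes. Like the count over both subunits, these counts depend on where 0 is set. Symbols do not follow the assembled particle in every case: Mrps30 and Mrps18a sit in the large subunit, and Mrps36 is better known as a component of the oxoglutarate dehydrogenase complex. With the first pair moved to the large subunit and Mrps36 left out, the medians were 0.14 and 0.15, a gap of -0.0093. The size of the gap, though not its sign, thus depends on the assignment of a few genes.

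The large-subunit member with the highest difference was Mrpl51 (Entrez gene 66493), a protein without a bacterial counterpart, with intensities of 1.66 on the control and 2.45 on the E47-ER array, a 1.49-fold difference. Mrpl36, homologue of the small bacterial protein L36, followed with 4.09 and 5.96 (1.47-fold). These intensities are among the dimmer ones of the set. The robust SD of the log2 difference was 0.28 over the dimmest 2453 measured probes, where Mrpl51 lies, and 0.26 over the next 2453, where Mrpl36 lies. It was 0.21 over the brightest 2453, which hold 36 of the 59 members. Mrpl27, homologue of bacterial L27, which reaches towards the peptidyl transferase centre, was brighter and had 34.9 and 49.2 (1.43-fold). Mrpl34 stood at 21.5 and 29.6 (1.39-fold). Mrpl14, a conserved protein of the subunit interface, stood at 28.2 and 37.9 (1.36-fold). The next was Mrpl19, homologue of bacterial L19, with 12.6 and 16.4 (1.31-fold).

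At the other end, Mrpl40 (Entrez gene 18100), a mitochondria-specific protein of the central protuberance, was the only member below -0.2. Its intensity was 40.6 on the control and 33.6 on the E47-ER array, 1.197-fold lower. The next lowest member stood 0.18 above it on the log2 scale, and Mrpl40 was also the lowest after loess (-0.38). The other members with the smallest differences were nearly equal on both arrays. Mrpl23, homologue of a protein at the nascent chain exit, had 53.6 and 52.2. Mrpl17, also from the exit region, had 78.2 and 76.4. Mrpl35 (2.47 and 2.46), Mrpl46 (4.97 on both arrays) and Mrpl12 (70.2 and 70.8) differed by less than 0.03 on the log2 scale. Mrpl12 is the homologue of the bacterial stalk protein L7/L12, which contacts translation factors.

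Values are given here by structural region. With 1 array per construct, gaps within a region have no measure of uncertainty, and different probes of 1 gene had a pooled SD of 0.20. The regional examples here were chosen after their values were seen. In the stalk and its base, Mrpl12 stood at 0.026, Mrpl11 at 0.044 and Mrpl10 at 0.086, all below the median of all measured genes. These values are unremarkable, since 54% of all measured genes lie within 0.2 of 0. Around the exit tunnel, Mrpl23 stood at -0.023, Mrpl17 at -0.019 and Mrpl24 at 0.11. Mrpl45, which tethers the ribosome to the inner membrane, stood at 0.061 (13.9 and 14.3). The central protuberance proteins ranged widely, with Mrpl40 at -0.26, Mrpl46 at 0.013, Mrpl38 at 0.21 and Mrpl18 at 0.28. Mrpl18, homologue of the bacterial 5S rRNA-binding protein, was the brightest member probe (111 and 133). Mrpl30 (77.8 and 94.9) and Mrpl17 were the next brightest of the large subunit. Near the catalytic centre the values ran from Mrpl27 at 0.51 down. Mrpl2, a core protein beside the peptidyl transferase centre, stood at 0.18, Mrpl16 at 0.26 and Mrpl3 at 0.086. Mrpl1, of the L1 stalk, stood at 0.17. Mrpl58, a peptidyl-tRNA hydrolase that is also a fixed component of the subunit, stood at 0.086 (26.6 and 28.0), and Mrpl57, among the dimmest probes, at 0.049 (1.91 and 1.96). The remaining large-subunit members, Mrpl4, Mrpl21, Mrpl28, Mrpl33, Mrpl39, Mrpl42, Mrpl43, Mrpl49, Mrpl53, Mrpl54 and Mrpl55, filled the range from 0.046 (Mrpl21, 40.7 and 41.6) to 0.34 (Mrpl33, 65.1 and 81.5).

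The small-subunit symbol with the highest difference was Mrps18a (Entrez gene 68565), one of the mammalian homologues of bacterial S18, with 13.6 on the control and 19.3 on the E47-ER array, 1.43-fold. Its relative Mrps18b, which sits in the small subunit, was bright and nearly equal at 75.9 and 81.1, a difference of 0.11. Mrps14, a conserved protein of the small-subunit head, had 2.24 and 3.16 (1.43-fold) from a dim probe. The mitochondria-specific Mrps25 had 35.6 and 47.9 (1.36-fold), and Mrps21, homologue of bacterial S21, had 10.5 and 14.1 (1.35-fold). Mrps11, of the platform, had 22.04 and 28.2 (1.29-fold). Mrps5, homologue of a protein near the mRNA entry, had 6.00 and 7.40 (1.25-fold).

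The lowest small-subunit differences were those of Mrps31 (10.8 and 10.2, -0.077) and Mrps34 (2.93 and 2.78, -0.059), both without bacterial counterparts. Mrps16 (46.3 on both arrays), Mrps9 (27.7 and 27.9) and Mrps7 (6.58 and 6.61) were practically equal, as was Mrps28 (28.0 and 28.5). Mrps12, the homologue of the S12 protein of the decoding centre, was the dimmest member probe (1.18 and 1.37, 0.24). Mrps17 (83.6 and 91.9) and Mrps15 (68.9 and 70.8), both conserved proteins, were with Mrps18b the brightest of the small subunit. The remaining genes, Mrps2, Mrps22, Mrps23, Mrps24, Mrps30, Mrps35 and Mrps36, lay between 0.054 (Mrps35, 25.1 and 25.8) and 0.30 (Mrps36, 33.8 and 41.3). Mrps22, a protein without a bacterial counterpart, stood at 0.14 (54.6 and 59.7).

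Genes were also grouped by descent from bacterial proteins, leaving out Mrpl55, Mrpl57, Mrpl58, Mrps18a, Mrps18b, Mrps28, Mrps30 and Mrps36, which the lists used here do not assign. In the large subunit, 22 genes listed as having bacterial homologues had a median of 0.15 and 11 mitochondria-specific ones a median of 0.15. In the small subunit, 12 genes listed as such had a median of 0.21, and all 12 were positive, while 6 mitochondria-specific ones had a median of 0.098 with 4 positive. Both negative small-subunit genes are among these 6. Over all measured genes 66.7% were positive, and these counts too depend on where 0 is set. Under 75th percentile scaling Mrps15 (-0.055), Mrps7 (-0.087), Mrps9 (-0.088) and Mrps16 (-0.093) of the 12 were also negative. So was Mrps35 (-0.054) of the 6. Mrps18a and Mrps18b, S18 homologues left out of the 12, stood at 0.52 and 0.11. Over the whole set, 24 members stood at 0.2 or more, 30 between 0 and 0.2, and 1 at -0.2 or less. These counts again depend on where 0 is set. The lower and upper quartiles were 0.051 and 0.30 for the members, against -0.055 and 0.27 for all measured genes.

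The members lie on 16 chromosomes. Only Mrpl46 and Mrps11 are direct neighbours among protein-coding genes in the RefSeq annotation of GRCm38.p6. This pair, with 1 gene for each subunit, had differences of 0.013 and 0.37.

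Other genes needed for mitochondrial translation showed differences of the same small size. Of the components that bear other names, Dap3, a GTP-binding protein of the small subunit, stood at -0.0060 (66.2 and 65.2) and Chchd1 at 0.21 (47.02 and 53.8). Of the mitoribosome assembly and rRNA modification list, 8 of 10 genes with a positive value were measured, 7 of them positive and none past 1.5-fold, with a median of 0.20. The highest was Trub2, a pseudouridine synthase family member (121 and 159, 0.41), and the lowest Noa1, a GTPase (6.68 and 5.65, -0.23). Over all measured genes, 66.7% were positive, 6.65% passed 1.5-fold and the median was 0.11. Under 75th percentile scaling 6 of the 8 assembly and modification genes were positive, against 49.7% of all measured genes. All 5 measured translation factor genes were positive, with a median of 0.093. They ranged from Mtrf1, a release factor family member (0.017), to Mtif2, the initiation factor (4.77 and 6.34, 0.42). Under 75th percentile scaling 2 of the 5 were positive and the list median was -0.015. Of the 17 mitochondrial tRNA synthetases listed, only 5 had a named probe here, and each of these was measured. All 5 lay within 0.2 of 0, from Nars2 at -0.12 to Ears2 at 0.028, with a median of -0.053. The difference was negative in 4 of them, against 33.3% of all measured genes.

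Of the measured genes listed as acting before the ribosome, none passed 1.5-fold either, against 6.65% of all measured genes. Both of these short lists had an SD of 0.27, wider than the 0.18 of the members. In the mitochondrial DNA and transcription list, 4 of 5 measured genes were positive, from the polymerase subunit gene Polg2 (-0.25) to the polymerase gene Polg (0.41), with the mitochondrial RNA polymerase Polrmt at 0.38 (20.5 and 26.5). Among 6 measured regulators of mitochondrial biogenesis, 4 were positive. Nrf1, which activates many nuclear genes for mitochondrial proteins, was the highest (0.32, with 6.18 on the E47-ER array), and Myc, a growth-promoting factor, the lowest (59.7 and 47.2, -0.33). The ETS factor Gabpa stood at 0.24 and its partner Gabpb1 at 0.19. Over all measured genes, 66.7% were positive. With 75th percentile scaling, 2 of the 5 mitochondrial DNA and transcription genes and 4 of the 6 regulators were positive. The share of all measured genes was then 49.7%.

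Set beside other sets, the members' median of 0.15 compares with 0.12 for 54 oxidative phosphorylation subunits, 43 of them positive, and with 0.14 for 14 protein import genes, 9 of them positive. The 61 measured cytosolic ribosomal protein genes had a median of 0.010 with 35 positive, and ran from Rps19 (-0.37) to Rpl26 (0.50). Over all measured genes, 66.7% were positive. With the arrays' 75th percentiles set equal, 29 of 54, 8 of 14 and 13 of 61 were positive in these sets. This compares with 35 of 59 members and 49.7% of all measured genes. Most cytosolic ribosomal protein probes, such as Rpl19 (529 and 508), were brighter than any member probe (at most 111 and 133). The part of brightness in these contrasts was not tested. Of the genes in these 3 sets, 1 passed 1.5-fold, Cox6a2, from a dim probe (1.67 and 2.50). No test of these contrasts can be made with 1 array per construct.

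**Figure D3:**
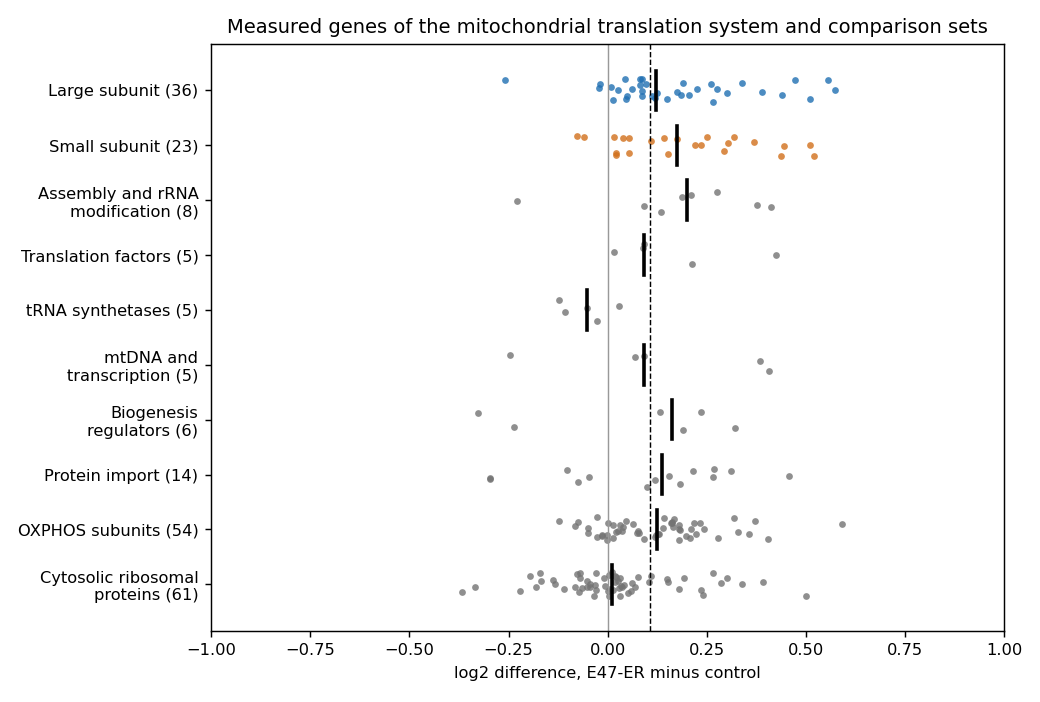
Log2 differences (E47-ER minus control) of measured genes, 1 point per gene, in the 2 subunits and in related sets, with the number of genes in brackets. Thick bars are medians, the dashed line is the median of all measured genes (0.11), and the subunit medians of 0.12 and 0.18 lie close to it.

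E47 binds E-box sequences, and nuclear genes for mitochondrial proteins are known for promoter sites of NRF1, ETS factors such as GABP, and YY1. Promoter windows from RefSeq (GRCm38.p6), 250 bases before to 50 after a start, were found for 52 of the 59 members and searched on both strands. A gene counted if any of its windows held the letters, and 2 members had several windows. An E47-type E-box, CAGCTG or CAGGTG, occurred in 16 of 52 members (30.8%), in 35.9% of all 27025 genes with a window and in 32.7% of measured genes. CAGCTG was found in 8 members and CAGGTG in 9. The Myc-type E-box CACGTG occurred in 2 members (3.85%, against 12.2% of measured genes). No motif searched contains another.

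The ETS motif CCGGAAG was in 36.5% of members against 21.9% of measured genes and 9.93% of all genes. The NRF1 motif, GCGCA then any base then GCGC, was in 17.3% of members, 12.1% of measured genes and 5.19% of all genes. The YY1 motif ATGGCGG was in 15.4%, 9.71% and 4.69%. A match describes letters in a window, not a bound site.

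Members with and without an E47-type E-box had median differences of 0.15 and 0.16. The groups by motif are small. With CAGCTG alone the medians were 0.073 for the 8 members with it and 0.18 for the others, and with CAGGTG 0.18 and 0.15. For the ETS motif they were 0.22 (19 members) and 0.15, for NRF1 0.061 (9 members) and 0.17, and for YY1 0.31 (8 members) and 0.13. For CACGTG they were 0.37 over only 2 members, Mrpl2 and Mrpl36, and 0.15. Over all measured genes the ETS medians were 0.14 with and 0.10 without the motif, the YY1 medians 0.14 and 0.11, and the NRF1 medians 0.16 and 0.10, the last in the opposite order to the members. For the E47-type E-boxes they were 0.11 with and 0.11 without. The values with and without each motif overlapped over most of their range, and the small groups share genes: Mrpl27 and Mrps18a hold CAGGTG, the ETS motif and the YY1 motif.

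**Figure D4:**
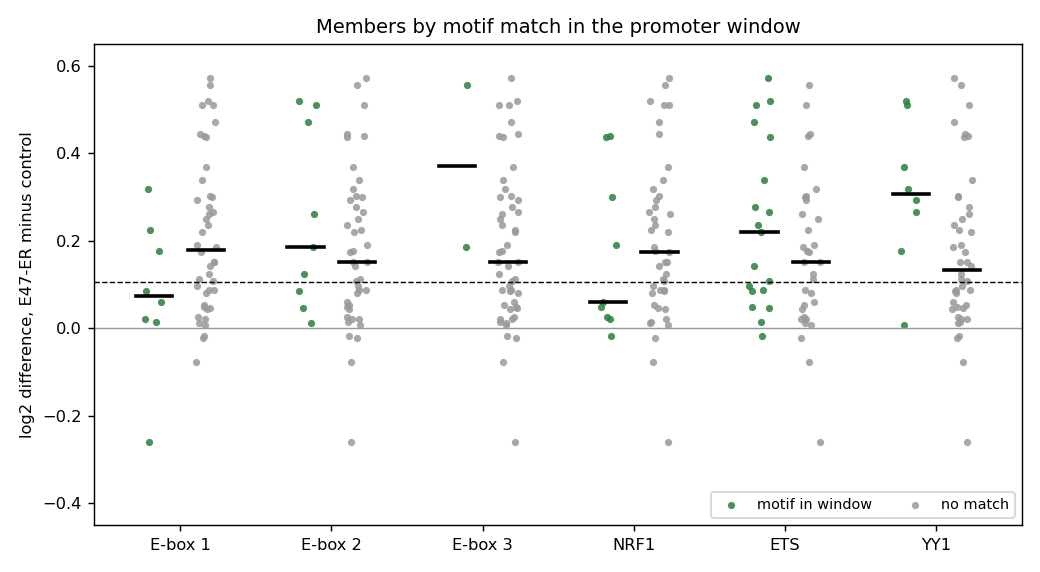
Log2 difference (E47-ER minus control) of the 52 members with a promoter window, split by the presence (green) or absence (grey) of each motif. E-box 1 is CAGCTG, E-box 2 is its variant CAGGTG and E-box 3 is the Myc-type form; bars are medians and the dashed line is the median of all measured genes (0.11). Points with and without a motif overlap in every panel position.

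Upstream sequences are shown for the ends of the range of differences. The 250 bases before the start are printed 5′ to 3′ in the direction of the gene, from RefSeq on GRCm38.p6, with searched motifs on either strand in capitals. In each subunit they belong to the highest members, Mrpl51 and Mrpl36 or Mrps18a and Mrps14, and to the lowest, Mrpl40 or Mrps31.
Mrpl51, chr6:125191950-125192199 (plus strand): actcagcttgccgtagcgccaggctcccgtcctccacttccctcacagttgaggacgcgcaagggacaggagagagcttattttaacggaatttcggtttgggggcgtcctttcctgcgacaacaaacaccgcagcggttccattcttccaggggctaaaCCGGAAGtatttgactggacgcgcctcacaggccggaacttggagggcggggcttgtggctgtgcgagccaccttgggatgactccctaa
Mrpl36, chr13:73330759-73331008 (plus strand): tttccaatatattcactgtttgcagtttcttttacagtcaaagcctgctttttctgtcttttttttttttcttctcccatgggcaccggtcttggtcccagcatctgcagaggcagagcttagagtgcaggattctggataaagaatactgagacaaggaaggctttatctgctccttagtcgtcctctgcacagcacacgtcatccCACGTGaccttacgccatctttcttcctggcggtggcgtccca
Mrps18a, chr17:46110754-46111003 (plus strand): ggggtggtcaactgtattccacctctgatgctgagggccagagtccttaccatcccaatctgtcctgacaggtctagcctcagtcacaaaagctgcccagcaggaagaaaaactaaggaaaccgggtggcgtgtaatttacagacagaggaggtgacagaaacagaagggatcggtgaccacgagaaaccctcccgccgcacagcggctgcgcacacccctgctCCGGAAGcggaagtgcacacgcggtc
Mrps14, chr1:160194965-160195214 (plus strand): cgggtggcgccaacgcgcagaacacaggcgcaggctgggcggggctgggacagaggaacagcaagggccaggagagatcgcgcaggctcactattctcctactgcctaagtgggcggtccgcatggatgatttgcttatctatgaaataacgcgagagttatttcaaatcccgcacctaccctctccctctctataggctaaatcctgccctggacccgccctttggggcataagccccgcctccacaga
Mrpl40, chr16:18876638-18876887 (minus strand): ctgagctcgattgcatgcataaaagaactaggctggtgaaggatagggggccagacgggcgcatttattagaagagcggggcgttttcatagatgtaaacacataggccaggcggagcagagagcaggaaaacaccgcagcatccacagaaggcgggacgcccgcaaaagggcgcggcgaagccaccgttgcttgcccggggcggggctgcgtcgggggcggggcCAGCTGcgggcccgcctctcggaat
Mrps31, chr8:22411090-22411339 (plus strand): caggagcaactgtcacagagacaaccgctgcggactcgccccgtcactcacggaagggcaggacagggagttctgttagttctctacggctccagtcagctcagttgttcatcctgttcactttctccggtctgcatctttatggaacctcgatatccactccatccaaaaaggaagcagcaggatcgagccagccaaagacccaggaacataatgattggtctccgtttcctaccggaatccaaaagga
The ETS motif begins 90 bases before the start in Mrpl51 and 26 in Mrps18a. Mrpl36 has a CACGTG beginning 43 bases before its start, and Mrpl40 a CAGCTG 25 bases before. No searched motif was found in the windows of Mrps14 and Mrps31, so neither end of the range shares a motif in all genes shown. Matches in the 50 bases after the start, such as the YY1 motif of Mrps18a, are counted above and not printed.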

How the data were processed

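Polyadenylated RNA of 2 samples was labelled with Cy3 and hybridised to 1 mouse oligonucleotide array each, per the labels. The authors deposited 1 linear intensity per probe and array. Values below 0 and array medians near 1 show background subtraction and scaling. Scanner, background method and scaling: not given in the sources used here. No control spots or detection calls are marked. The number of arrays limits the precision.

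Probes with a positive value on both arrays were kept (19621, 668 left out), and log2 values were centred on each array's median. Symbols came from the platform annotation, updated by Entrez gene ID through RefSeq (GRCm38.p6): 10349 probes have 1 symbol and 9940 are unnamed here. Probes of a gene were averaged. Measured genes have a mean log2 level at or above the 50th percentile of probes. With 1 array per construct no p-value was computed, and folds of 2 and 1.5 were set as limits. The members, lists and alternatives were chosen with earlier results of these data known. Any member may be named; intensities are given for the 6 highest and 6 lowest differences and the 3 brightest and 3 dimmest probes per subunit, and from each list genes past 1.5-fold or else the highest and lowest. Others named by structural region or as regulators were chosen after their values were seen. Alternatives were 75th percentile scaling, quantile normalization, loess (span 0.4), other level limits, 0.1 added before log2, probes as entries, current symbols and subunit assignment. Steps were tested on simulated data with a large-subunit shift greater than the gap found here, so recovery of a gap this small was not tested. Python 3.11.15, pandas 2.3.3, numpy 2.4.6 and statsmodels 0.14.6 were used.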

Additional observations from a re-analysis of the deposited data

How the results depend on the processing

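No paired analysis was possible because each construct has 1 array, and for the same reason no array could be left out. The absence of any member past 1.5-fold or 2-fold held under the 7 scalings, level limits and added constant tried. Medians within 0.05 of the main value, and counts within 1.5 times, were taken as unchanged, since no replicate spread exists. Level limits, the added constant, single probes, current symbols and subunit assignment moved none of the members' medians, the subunit gap or, where recomputed, the counts beyond that. For the subunit gap this tolerance cannot decide, being about as wide as the gap itself. The gap was -0.053 in the main setting, -0.026 with the level limit at the 75th percentile and -0.0093 with the changed subunit assignment. The translation factor and assembly lists were recomputed under the 3 other scalings only, and the motif gaps under 75th percentile scaling and quantile normalization only. With 75th percentile scaling the median was 0.042 for all members, 0.014 for the large and 0.067 for the small subunit, 35 members were positive, the assembly list had 0.092, and the translation factor list changed sign to -0.015. Quantile normalization gave 0.055, 0.022 and 0.056 for all members and the 2 subunits, 0.026 for translation factors, 0.096 for assembly, and a gap of -0.059 between members with and without the NRF1 motif, from -0.11. Loess on level gave 0.036, 0.016 and 0.072 for the same 3 medians, 34 positive members, 0.017 for translation factors and 0.090 for assembly. Under each of these scalings the large-subunit median was below the small-subunit one. The excess of the members' median over all measured genes lay between 0.017 and 0.075 over these settings, a comparison added after seeing the data. Differences spread more widely among dim than among bright probes (robust SD 0.28 and 0.21); how much of this is measurement error was not tested.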
